A study of Mus musculus with 6 samples.

Results

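DEAD and DEAH box proteins are RNA-dependent ATPases named for a short acidic motif that binds the magnesium ion of ATP in the helicase core. Here their 47 genes were described in mouse bone-marrow-derived macrophages, of 41972 entries in the gene count table. They are the protein-coding entries named Ddx or Dhx plus a number, with at least 60 counts summed over the 6 libraries. Ddx58 (RIG-I) and Dhx58 (LGP2), which sense viral RNA, were set aside by name. The macrophages were grown from femur and tibia marrow of male C57BL/6 mice aged 6 weeks, of wild-type genotype per the labels, over 6 days with 20% serum and 30% L-929-conditioned medium. The control cells then spent 6 h with PBS. The treated cells spent the same time with extracellular vesicles (EVs) made by Aspergillus flavus, a mould that infects the lung and spoils grain, at a dose of 20 µg a well. EVs came from a source labelled LD-F1 or one labelled LD-F1_b, each called a strain in the titles, and the sources used here do not say what the suffix means. Each group had 2 biological replicates. The comparisons asked whether helicase transcripts changed with EVs, and whether the EV sources differed.

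DEAD box (Ddx) proteins mostly pull apart short duplexes locally or clamp RNA, whereas DEAH box (Dhx) proteins move along RNA and are often switched on by G-patch cofactors. Between them they remodel the spliceosome, process ribosomal RNA in the nucleolus, load export factors onto mRNA, aid translation initiation and feed mRNA into decay. In myeloid cells some members are also studied as sensors of foreign nucleic acid, among them Ddx41, Dhx9, Dhx15 and Dhx36.

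Both name families take their names from the motif, so its coding bases are shown. In GENCODE M21 transcripts it was searched for in 42 of the genes, those matched to the promoter windows described below. It was found in 40, with Ddx26b and Dhx32 as the exceptions. Ddx6, Ddx11, Ddx23, Ddx39 and Dhx38 were not searched, so the codons below do not cover them. Its last codon was for aspartate in every Ddx gene where it was found and for histidine in every Dhx gene. The third codon was for alanine in 22 Ddx and 7 Dhx genes and for another residue in 5 Ddx genes (Ddx21, Ddx28, Ddx39b, Ddx50 and Ddx52) and 6 Dhx genes (Dhx9, Dhx29, Dhx30, Dhx34, Dhx36 and Dhx57). The 30 coding bases around the motif follow for 7 genes discussed below and for Ddx21, the close paralog of Ddx50, with the 4 codons of the motif in capitals.
Dhx40: attattttgGATGAAGCCCATgaaagaact
Ddx50: gttgtgcttGATGAAGTAGATcaaatgtta
Ddx21: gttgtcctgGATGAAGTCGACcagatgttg
Ddx49: ctggtgatgGATGAGGCCGACaggctgctg
Ddx24: ctggtcataGATGAAGCTGATcgcatggtt
Ddx41: ctagccctgGATGAAGCTGACcgcatgatt
Ddx56: ctggtggtaGATGAAGCTGACcttcttttt
Dhx34: ctgatcgtgGACGAGGTCCACgagcgacac
Of these 8, Ddx50, Ddx21 and Dhx34 have a codon for another residue in the alanine position. The gene descriptions in the table listed the helicase C-terminal domain (PF00271) for 40 of the genes and the DEAD/DEAH domain (PF00270) for 38. The HA2 and OB-fold domains that follow the core were listed for 11 Dhx genes each and for 0 Ddx genes, and the GUCT domain for Ddx21 and Ddx50 only. No domain at all was listed for Ddx23, Dhx32, Dhx34, Dhx35 and Dhx57, so these counts do not show that they lack the domains. Ddx26b is a member by name alone: its description is that of a subunit 6-like protein of the Integrator complex with a von Willebrand factor domain.

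Library totals were 13722215 to 15277997 counts, and the table's positions are given as it has them, taken as those of the C57BL/6NJ assembly. Levels are in CPM, counts scaled to a common library total, with 2 libraries a group, and a log2 fold change is given ± its standard error (SE). A gene was called at an adjusted p under 0.05 in the quasi-likelihood test of edgeR over 12740 genes, 47 of them helicases, and "higher", "lower", "rose" and "fell" refer to called genes. The LD-F1 replicates were the least alike (Pearson's r of log2 CPM across genes 0.9842, against 0.9885 for LD-F1_b and 0.991 for PBS), and their log2 difference followed gene length (Spearman's rho -0.48 across genes, against -0.20 and -0.008). Macrophage markers Csf1r, Cd68, Adgre1 and Mpeg1 were abundant, and the 8 of 9 listed markers in the table summed to 3174 to 3186 CPM in PBS, 3657 to 3736 with LD-F1 and 3642 to 3702 with LD-F1_b. The higher sums with EVs came mainly from Cd14, a co-receptor for bacterial lipopolysaccharide, which stood at 418 and 427 CPM in PBS, 893 and 1083 with LD-F1 and 750 and 805 with LD-F1_b, while Csf1r stood at 1336 and 1296, 1208 and 1142, and 1264 and 1315. Itgam, which encodes CD11b, and Mertk had only 7 and 28 counts over all libraries. Of 32 markers of other cell types, 31 were in the table and 17, including Cd3e and Ly6g, had 0 counts in all 6 libraries. Their sum was 50.7 to 58.1 CPM in PBS, 37.2 to 45.5 with LD-F1 and 42.6 to 45.5 with LD-F1_b, mostly from Vwf, an endothelial and platelet marker that fell with both EV sources (-0.73 ± 0.13, edgeR adjusted p = 0.00197, and -0.45 ± 0.13, edgeR adjusted p = 0.0475). Xcr1, a dendritic cell marker, went the other way, from 1.31 and 1.13 CPM in PBS to 7.72 and 8.39 with LD-F1 and 4.80 and 4.08 with LD-F1_b (2.72 ± 0.28, edgeR adjusted p = 2.9e-05, and 1.86 ± 0.29, edgeR adjusted p = 0.00153). Other listed markers of dendritic cells were low. Zbtb46 was not called (-0.90 ± 0.67 with LD-F1 and -0.27 ± 0.62 with LD-F1_b). Flt3 had 7 counts over all libraries and Siglech had 0. The listed endothelial and platelet markers Cdh5, Itga2b and Gp9 were low too, with 29, 21 and 0 counts. So Vwf and Xcr1 alone do not show that such cells were present. The part of these markers in the results below was not tested. In bulk RNA fewer cells of a type cannot be told apart from less RNA per cell.

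The helicases were expressed in every group, over a wide range of levels. Scaled to gene length, Ddx5 and Ddx17, paralogous co-regulators of splicing and transcription, Ddx21, a nucleolar helicase of ribosomal RNA synthesis, and Ddx3x, an X-linked helicase of translation initiation, stood highest. In PBS their mean levels were 130, 131, 128 and 123 CPM per kilobase. The order of Ddx5, Ddx21 and Ddx17 changed from library to library, whereas Ddx3x ranked the third or the fourth and lay below Ddx5 and Ddx21 in all 6 libraries. Ddx18, which acts in ribosome assembly, was the fifth and Ddx1, an RNA helicase of the tRNA ligase complex, the sixth in all 6 libraries. Levels with PBS were 91.3 CPM per kilobase for Ddx18 and 89.7 for Ddx1.

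At the other end, the least abundant members just inside the count minimum were Ddx59 (542 counts over all libraries), Ddx19b (693) and Dhx57 (1471). Just outside it were Ddx43 and Ddx60 with 1 count each, Ddx25 with 2 and Ddx4, the germ cell helicase Vasa, with 7. Ddx60 is known as an interferon-inducible helicase of antiviral defence. The table has 0 entries named Ddx3y, the Y-linked paralog of Ddx3x, and 0 entries on chromosome Y. Ordered by role, the median level per kilobase was 36.4 CPM for 14 splicing helicases and 22.0 for 16 of ribosome biogenesis. It was 30.9 for 4 of nucleic-acid structure, sensing and genome upkeep, 16.8 for 2 mitochondrial helicases, 16.3 for 6 of export, translation and decay, and 3.86 for 5 whose role is less settled. All helicases together took 0.808% and 0.812% of the raw counts in PBS, 0.778% and 0.766% with LD-F1, and 0.773% and 0.761% with LD-F1_b. On this measure both PBS libraries lay above every EV library. The shares leave out the scaling factors behind the CPM, which were 1.04 in both PBS libraries and 0.965 to 0.991 with EVs. With that scaling, the median log2 fold change of the helicases against PBS was -0.00 with LD-F1 and -0.01 with LD-F1_b.

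**Figure D1:**
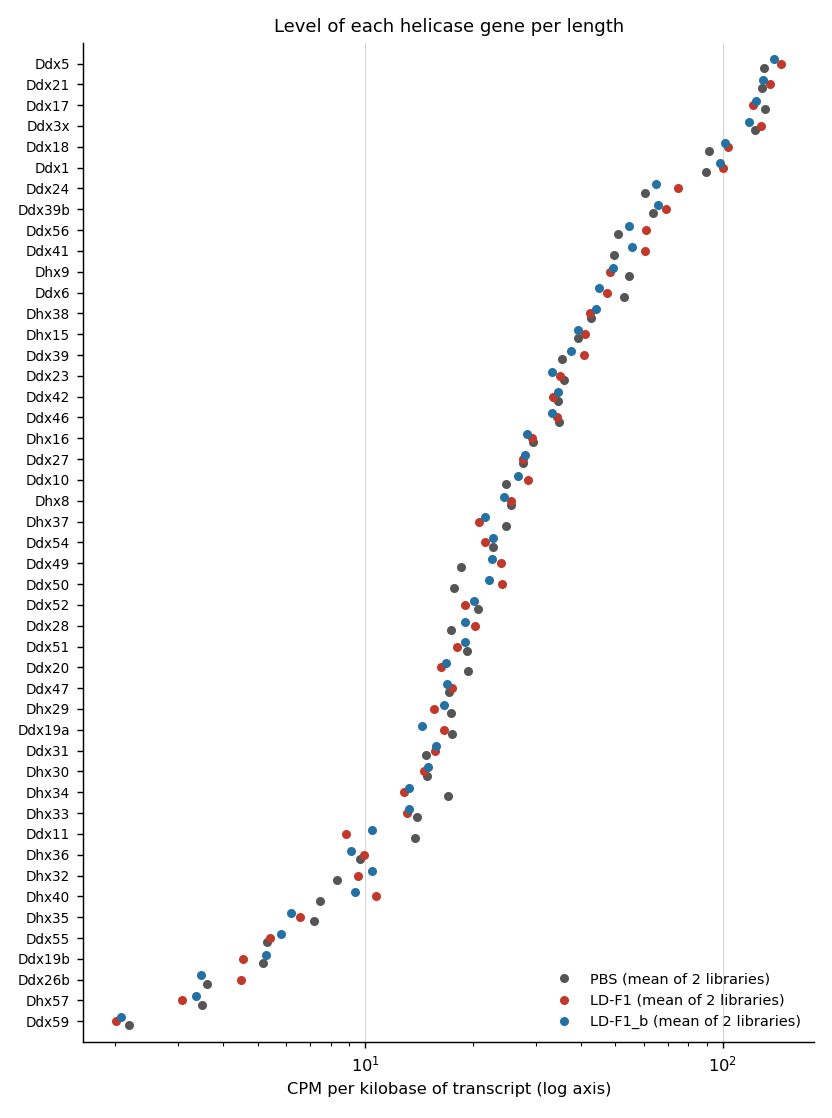
Level of each of the 47 helicase genes in CPM per kilobase of gene length, on a log axis, as the mean of 2 libraries for each group. The points of the 3 groups lie close together for most genes, and Ddx5, Ddx21, Ddx17 and Ddx3x are at the top in every group.

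With LD-F1 EVs against PBS, 6 helicases were higher and 2 were lower, and 39 were not called. Dhx40, Ddx50, Ddx49, Ddx24, Ddx41 and Ddx56 rose by 1.20-fold to 1.44-fold, while Ddx11 fell to 0.642 and Dhx34 to 0.754 of the PBS level. Called shares were 12.8% higher and 4.26% lower for the helicases, beside 11.4% higher and 9.87% lower over all genes tested. In all, 17.0% of the helicases were called, against 21.2% of all genes tested and 26.5% of the 9382 genes tested at or above the level of the least abundant helicase (6.18 CPM), so the helicases were not called at a share above the background.

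Their changes were small. The median log2 fold change was -0.00 (range -0.64 to 0.52), and 45 of 47 helicases lay within 0.5 of 0 on the log2 scale, a share of 95.7%, beside 82.7% of those 9382 genes. For 37 helicases (78.7%) the whole 95% interval lay within that range, beside 49.5% of those 9382 genes. For 47 it lay within 1, as it did for 8414 of the 9382. Interval widths depend on precision, and the median SE was 0.09 for the helicases and 0.12 for those genes. The part of precision in the narrower range was not tested.

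**Figure D2:**
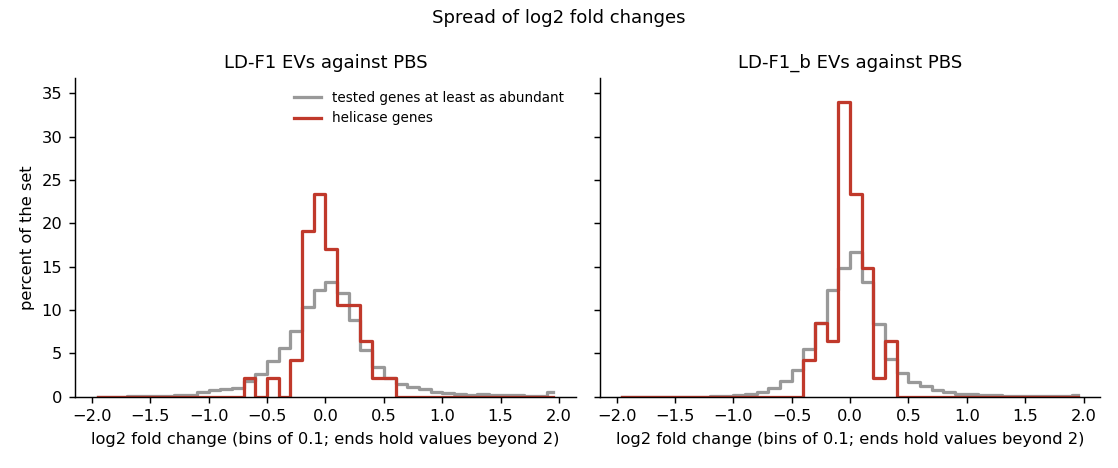
Share of genes (percent) in bins of log2 fold change against PBS, for LD-F1 EVs (left) and LD-F1_b EVs (right), with helicases in red and tested genes at least as abundant as the least abundant helicase in grey. The red outline is the narrower in both panels: helicases ran from -0.64 to 0.52 with LD-F1 and from -0.40 to 0.33 with LD-F1_b.

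Of the 16 helicases of ribosome biogenesis, 4 rose with LD-F1, 0 fell and 12 were not called (median 0.05, range -0.25 to 0.44). Counts by role, here and below, stand beside 11.4% higher and 9.87% lower over all genes tested. Whether a role differs from that background was not tested, and how far the calls depended on the processing is given below. Ddx50 (chr10:64269415-64316280 in the table), a nucleolar protein that processes ribosomal RNA, stood at 47.0 and 45.0 CPM in PBS and at 58.3 and 66.9 with LD-F1. Both LD-F1 libraries lay above both PBS libraries, and the log2 fold change was 0.44 ± 0.12 (SE, n = 2 per group; edgeR adjusted p = 0.0188). Ddx49 (chr8:73226185-73237071), which takes part in ribosomal RNA processing and mRNA export, stood at 53.9 and 52.2 CPM in PBS and at 64.3 and 72.8 with LD-F1. Its libraries did not overlap either, at a difference of 0.37 ± 0.12 (edgeR adjusted p = 0.0433). With 2 libraries a group, such separation was also seen for many helicases that were not called. Among them were Ddx21 (0.08 ± 0.08), Ddx3x (0.06 ± 0.08), Ddx23 (-0.04 ± 0.08) and Ddx42 (-0.05 ± 0.08). Here and below it therefore describes the libraries and adds no support to a call, and its share over all genes is not given.

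Ddx24 (chr12:108353117-108371008), a nucleolar helicase linked to p53 control, was more abundant and its replicates were tight. It stood at 191 and 193 CPM in PBS and 227 and 247 with LD-F1, a change of 0.30 ± 0.08 (edgeR adjusted p = 0.0215). Ddx56 (chr11:3461027-3469880), a factor of the large ribosomal subunit, stood at 126 and 132 CPM in PBS and 151 and 158 with LD-F1, a change of 0.27 ± 0.09 (edgeR adjusted p = 0.0467). Groups did not overlap for either gene. Of the others, Dhx37, the helicase that releases U3 snoRNA from the small-subunit precursor, had the lowest value, -0.25 ± 0.09, and was not called (edgeR adjusted p = 0.0647).

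Among 14 splicing helicases only Ddx41 was called. Ddx41 (chr13:56676979-56684832), a spliceosomal helicase also described as a sensor of cytosolic DNA, stood at 113 and 105 CPM in PBS and 128 and 139 with LD-F1. The groups did not overlap, at a log2 fold change of 0.29 ± 0.09 (edgeR adjusted p = 0.0460). The remaining 13 spanned -0.26 to 0.20. At the low end was Ddx20 (gemin 3 of the SMN complex, -0.26 ± 0.10, edgeR adjusted p = 0.105). The DEAH helicases that drive the spliceosome's catalytic steps, release the mRNA and take the complex apart had values near 0: Dhx8 had -0.00 ± 0.09, Dhx38 -0.01 ± 0.09, Dhx16 -0.01 ± 0.10 and Dhx15 0.06 ± 0.08.

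Of 6 helicases of export, translation and decay, 1 fell, 0 rose and 5 were not called. Dhx34 (chr7:14614685-14639824), which promotes nonsense-mediated decay by acting on the helicase UPF1, stood at 82.2 and 74.3 CPM in PBS and at 60.03 and 58.03 with LD-F1. Both LD-F1 libraries were below both PBS libraries, at a log2 fold change of -0.41 ± 0.10 (edgeR adjusted p = 0.0129). Ddx6, the decapping activator of P-bodies, was not resolved, since the LD-F1 libraries stood at 163 and 98.7 CPM, either side of 146 and 147 in PBS (-0.16 ± 0.22). Without LD-F1 replicate 1 its log2 fold change was -0.57, a value that rests on LD-F1 replicate 2 alone.

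Ddx11 (chr17:70923941-70957336) had the largest fall among the helicases. It encodes a DNA helicase of the iron-sulfur family that acts in sister chromatid cohesion, and its description lists the DEAD_2 domain in place of the common helicase core. It stood at 59.6 and 55.8 CPM in PBS and at 38.2 and 35.9 with LD-F1, with no overlap (log2 fold change -0.64 ± 0.10, edgeR adjusted p = 0.000928). The other 3 members of its role were not called: Ddx1 had 0.16 ± 0.09, the G-quadruplex helicase Dhx36 0.03 ± 0.09, and Dhx9 (RNA helicase A) -0.18 ± 0.10.

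Dhx40 had the largest rise among the helicases, and is a DEAH protein whose role is less settled. Dhx40 (chr11:91007542-91050641) stood at 30.2 and 32.6 CPM in PBS and at 45.7 and 44.6 with LD-F1. The 4 libraries fell into well-separated pairs, at a log2 fold change of 0.52 ± 0.11 (edgeR adjusted p = 0.00426). The other 4 of less settled role were not called, and neither were the mitochondrial helicases Ddx28 (0.22 ± 0.11) and Dhx30 (-0.02 ± 0.09).

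**Figure D3:**
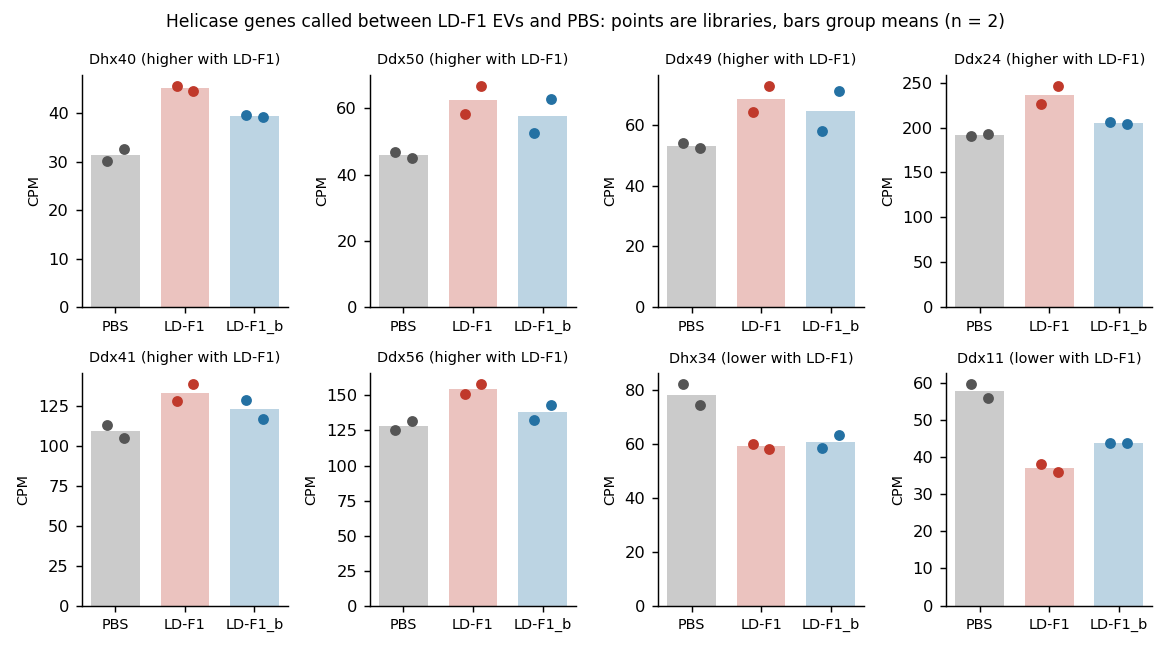
Level in CPM of the 8 helicase genes called between LD-F1 EVs and PBS, with 1 point for each library and bars at the group mean (n = 2), on axes that start at 0. PBS and LD-F1 points do not overlap for any of the 8, as was also so for many helicases not called, such as Ddx21 and Ddx3x. The mean of LD-F1_b lies between the other means in each panel.

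The calls differed in how much they depended on the processing. Ddx11 was called lower with LD-F1 under all 13 alternatives tried, with an edgeR or DESeq2 adjusted p of at most 0.0255. Dhx40 lost its call only without PBS replicate 1 (highest edgeR adjusted p 0.0933), and Dhx34 only without PBS replicate 1 or without PBS replicate 2 (highest 0.202). Ddx50 lost its call without either PBS library and when libraries were scaled by their totals alone (highest 0.165). The remaining calls were lost more often: Ddx24 under 6 alternatives, Ddx49 under 8, Ddx56 under 9 and Ddx41 under 10, with adjusted p up to 0.219, 0.254, 0.369 and 0.365. None of these 8 changes turned direction. Scaling by library totals moved the median of all genes from 0.01 to -0.10 and left 1 helicase higher and 5 lower, and over all genes it moved the share of higher calls from 53.5% to 33.6%. The helicase counts also moved when single libraries were left out, and so did the number of all genes called, as given at the end.

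Most of the genes that rose were also short for helicases. Gene length in the table had a median of 2729 bases for the 6 that rose (2205 to 4209, the longest being Dhx40). The median was 4817 for the 39 not called, 4397.5 for the 2 that fell and 3475 for all genes tested. Between the LD-F1 replicates, the median log2 difference (replicate 2 minus 1) was 0.12 for the 6 that rose and -0.03 for those not called. With the length trend taken out of each library, 7 helicases were higher and 2 lower with LD-F1. Ddx41 was no longer called then, and Ddx39 and Ddx26b were.

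**Figure D4:**
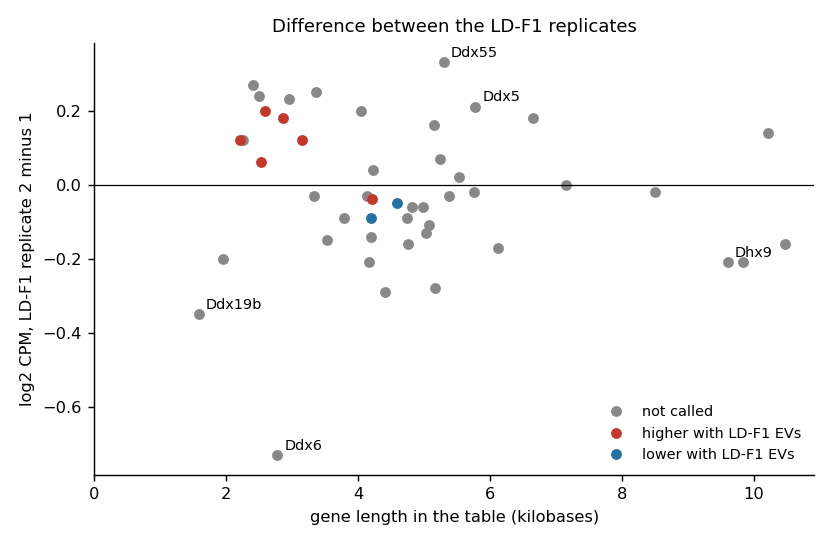
Difference in log2 CPM between the LD-F1 replicates (replicate 2 minus 1) against gene length in kilobases, with 1 point for each of the 47 helicases. Of the 6 genes higher with LD-F1 EVs (red) most are short and above 0, and Ddx6 lies far below all other genes at -0.73.

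With LD-F1_b EVs against PBS, 0 helicases were higher and 2 were lower, beside 6.44% higher and 4.54% lower over all genes tested. The called share of 4.26% compares with 11.0% of all genes tested and 14% of the 9382 genes at least as abundant. DESeq2 likewise called 0 higher and 2 lower. An unadjusted edgeR p under 0.05 was found for 7 helicases (14.9%), against 24.7% of all genes tested and 29.1% of those 9382 genes. The 2 were those that fell with LD-F1. Both comparisons share the PBS libraries, so they are not independent.

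Ddx11 stood at 43.7 and 43.8 CPM with LD-F1_b, below both PBS libraries, a log2 fold change of -0.40 ± 0.10 (edgeR adjusted p = 0.0265). Dhx34 stood at 58.6 and 63.2 CPM, also below both PBS libraries, at -0.36 ± 0.10 (edgeR adjusted p = 0.0375). Each lost its call without LD-F1_b replicate 1, LD-F1_b replicate 2, PBS replicate 1 or PBS replicate 2, with adjusted p up to 0.302 for Ddx11 and 0.399 for Dhx34. The 6 genes that rose with LD-F1 had positive values here that missed the threshold. Dhx40 was at 39.6 and 39.2 CPM (0.33 ± 0.11, edgeR adjusted p = 0.0765) and Ddx50 at 52.6 and 62.9 (0.33 ± 0.12, edgeR adjusted p = 0.104). Ddx49 had 0.28 ± 0.12, Ddx41 0.17 ± 0.09, Ddx24 0.10 ± 0.08 and Ddx56 0.10 ± 0.09. Over all helicases the median was -0.01 (range -0.40 to 0.33). When the LD-F1 libraries were left out of the fit, Dhx40, Ddx50, Ddx49 and Dhx32 were called higher. Dhx37 was then called lower in addition to Ddx11 and Dhx34. Many more genes were called over all genes tested too in that fit, as given at the end, so the added calls are not particular to the helicases.

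**Figure D5:**
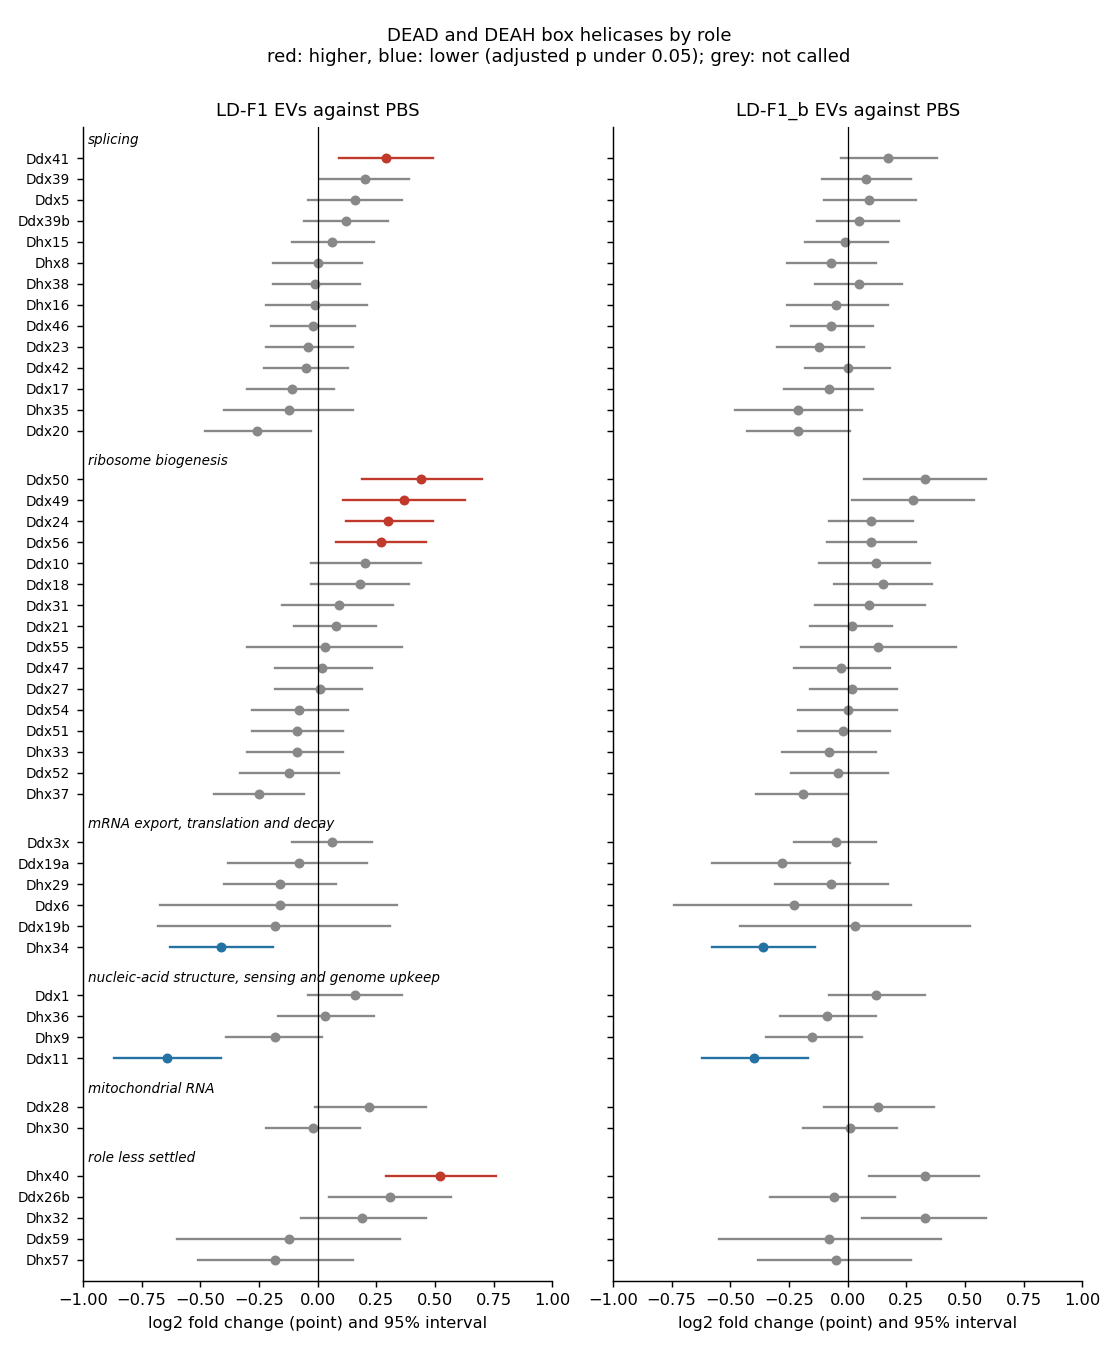
Log2 fold change against PBS (point) with its 95% interval (line) for the 47 helicases by role, for LD-F1 EVs (left) and LD-F1_b EVs (right), with called genes in colour. Most intervals cover 0, and only Ddx11 and Dhx34 are coloured in both panels.

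Between the EV groups, 0 helicases were called in either direction, by edgeR or by DESeq2. An unadjusted edgeR p under 0.05 was found for 3 (Ddx26b, Ddx24 and Ddx11), 6.38% of the helicases beside 8.78% of all genes tested. Over all genes tested 0.0157% were higher and 0.408% lower with LD-F1_b, 0.424% in all, so 0 of 47 is near that background. The median helicase difference was -0.04 (range -0.38 to 0.24). For 43 helicases (91.5%) the 95% interval lay within 0.5 of 0, beside 74.0% of the 9382 genes at least as abundant. For Dhx40 the interval was -0.43 to 0.04, for Ddx24 -0.39 to -0.03, for Dhx34 -0.18 to 0.27 and for Ddx11 0.01 to 0.47. The intervals of Ddx24 and Ddx11 leave out 0 on the side of a smaller change with LD-F1_b, but neither difference passed the adjustment over all genes (edgeR adjusted p = 0.503 and 0.549). Over the alternatives the Ddx24 difference ran from -0.27 to -0.14. It passed the threshold only without LD-F1 replicate 1, a fit that rests on 1 LD-F1 library and does not settle the difference.

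Close paralogs were compared within libraries, where the assignment of reads that fit both copies is not stated. Ddx50 and Ddx21 lie next to each other on chromosome 10 and act in the same nucleolar steps. The CPM of Ddx50 was 0.0778 and 0.0733 times that of Ddx21 in PBS, 0.0880 and 0.108 times with LD-F1, and 0.0853 and 0.102 times with LD-F1_b, not scaled for length. All 4 EV libraries lay above both PBS libraries. Ddx21 itself stood at 604 and 614 CPM in PBS, 663 and 621 with LD-F1, and 616 and 615 with LD-F1_b (0.08 ± 0.08 and 0.02 ± 0.08 against PBS).

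The Ddx5 to Ddx17 ratio was 1.23 and 1.18 in PBS, 1.28 and 1.65 with LD-F1, and 1.37 and 1.34 with LD-F1_b, and neither gene was called. Ddx5 stood at 758 and 746 CPM in PBS, 780 and 900 with LD-F1 and 820 and 785 with LD-F1_b. Ddx17 stood at 618 and 631, 611 and 545, and 598 and 584 CPM in the same order. Over the alternatives the change with LD-F1 ran from 0.05 to 0.26 for Ddx5 and from -0.22 to -0.03 for Ddx17. The 2 genes passed the threshold only without LD-F1 replicate 1. That fit rests on 1 LD-F1 library, so it does not settle whether they changed. The mRNA export helicases Ddx39 (Ddx39a) and Ddx39b (UAP56) kept a ratio of 0.737 to 0.875 in all 6 libraries. For Ddx19a and Ddx19b, which act at the nuclear pore and lie side by side on chromosome 8, the ratio ran from 2.88 to 5.17 with overlapping groups, at 6.33 to 9.47 CPM of Ddx19b. Ddx3x, whose Y-linked paralog has no entry, stood at 659 and 664 CPM in PBS, 696 and 684 with LD-F1 and 652 and 624 with LD-F1_b (0.06 ± 0.08 and -0.05 ± 0.08).

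Promoter windows from RefSeq (GRCm38.p6, 250 bases before to 50 after a start) matched 42 of the helicases, with 53 windows, 1 gene through an older name. Ddx6, Ddx11, Ddx23, Ddx39 and Dhx38 had no match. The 3 motifs searched were counted on both strands over whole windows. The ETS motif CCGGAAGT was in 11 of 53 helicase windows (20.8%), against 3.89% of all windows and 5.15% of those of protein-coding genes. The CRE motif TGACGTCA was in 6 (11.3%), against 1.79% and 2.23%, and the E-box CACGTG in 5 (9.43%), against 7.15% and 7.84%. Windows of 1 gene can overlap, and a match is only a run of letters. The 250 bases before the start are shown for Dhx40, which had the largest rise, and for the neighbours Ddx50, which rose, and Ddx21, which was not called, with motif matches in capitals.
Dhx40, chr11:86807661-86807910, minus strand: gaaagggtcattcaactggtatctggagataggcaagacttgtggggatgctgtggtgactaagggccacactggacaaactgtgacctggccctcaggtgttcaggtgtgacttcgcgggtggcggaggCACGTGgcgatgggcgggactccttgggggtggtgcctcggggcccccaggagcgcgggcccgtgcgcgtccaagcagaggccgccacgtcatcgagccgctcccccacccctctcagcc
Ddx50, chr10:62651219-62651468, minus strand: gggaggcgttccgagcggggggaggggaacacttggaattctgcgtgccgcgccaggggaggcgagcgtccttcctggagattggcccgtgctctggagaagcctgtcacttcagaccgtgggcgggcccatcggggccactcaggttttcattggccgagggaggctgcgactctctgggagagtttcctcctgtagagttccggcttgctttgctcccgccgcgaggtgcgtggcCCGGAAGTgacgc
Ddx21, chr10:62602299-62602548, minus strand: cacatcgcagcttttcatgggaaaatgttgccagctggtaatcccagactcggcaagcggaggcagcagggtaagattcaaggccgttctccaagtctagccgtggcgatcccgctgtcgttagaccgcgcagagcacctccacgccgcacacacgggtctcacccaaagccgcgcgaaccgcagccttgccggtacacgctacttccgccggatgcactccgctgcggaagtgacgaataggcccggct
The E-box of Dhx40 starts 120 bases before the gene's start and the ETS motif of Ddx50 13 bases before it, while the Ddx21 stretch holds none of the 3 motifs. Ddx50 has a second RefSeq window, whose bases before the start (chr10:62649754-62650003, minus strand) hold none of them either. The ETS motif was also in windows of Dhx34, which fell, and of Ddx17, Ddx27, Ddx39b, Ddx47, Dhx8, Dhx9, Dhx30 and Dhx37, not called. The E-box was also in windows of Ddx5, Ddx42, Dhx33 and Dhx35, not called. The CRE was in those of Ddx49, which rose, and of Ddx19a, Ddx28, Ddx51 and Dhx36, not called. Whether a motif goes with a change was not tested.

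Genes that work with the helicases were read beside the shares over all genes tested with LD-F1, which were 11.4% higher and 9.87% lower. Of 23 tested genes of the small-subunit processome, the nucleolar particle in which many ribosome biogenesis helicases act, 3 rose with LD-F1 and 0 fell (median 0.13), a share near that background. These were Rrp9 (0.52 ± 0.13, edgeR adjusted p = 0.0149), Npm1 (0.34 ± 0.10, 0.0384) and Nop14 (0.33 ± 0.09, 0.0231). Of 20 tested G-patch genes, whose products activate DEAH helicases, only Sugp2 was called (-0.41 ± 0.13, edgeR adjusted p = 0.0459). Among the 7 SMN complex genes, 7 cofactors of eIF4A and 12 decapping genes around Ddx6, 0 were called in either direction with either EV source.

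In the exon junction complex 1 of 8 genes rose, also near the background, Magohb (0.72 ± 0.21 with LD-F1, edgeR adjusted p = 0.0302, and 0.83 ± 0.21 with LD-F1_b, edgeR adjusted p = 0.0235). In the TREX export complex, which carries Ddx39b, 1 of 12 rose with LD-F1, Thoc6 (0.40 ± 0.11, edgeR adjusted p = 0.0218). With LD-F1_b, 0 genes of the processome, G-patch and TREX lists were called.

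Helicases of related families under other names were called in 5 of 20 cases with LD-F1, 4 higher and 1 lower, beside 21.2% of all genes tested, so their share was near the background too. Ifih1 (MDA5), a cytosolic sensor of long double-stranded RNA, rose by 1.63 ± 0.18 on the log2 scale (edgeR adjusted p = 4.35e-05), from 6.79 and 6.80 CPM in PBS to 23.4 and 18.9. Helz2, a nuclear receptor co-activator, had 0.84 ± 0.22 with replicates at 175 and 101 CPM, and the translation helicases Eif4a1 and Eif4a2 had 0.29 ± 0.08 and 0.29 ± 0.09. Upf1, the nonsense-mediated decay helicase on which Dhx34 acts, fell from 288 and 292 CPM in PBS to 250 and 206 (-0.35 ± 0.10, edgeR adjusted p = 0.0295). With LD-F1_b only Ifih1 was called (0.80 ± 0.18, edgeR adjusted p = 0.0147).

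The 2 antiviral genes set aside by name had larger log2 fold changes than any of the 47. Ddx58 rose by 1.49 ± 0.13 with LD-F1 and by 0.80 ± 0.13 with LD-F1_b (edgeR adjusted p = 8.03e-06 and 0.00210), and Dhx58 by 1.5 ± 0.13 and 0.57 ± 0.13 (edgeR adjusted p = 8.42e-06 and 0.0171). Between the EV groups both were lower with LD-F1_b, at -0.69 ± 0.13 and -0.92 ± 0.13 (edgeR adjusted p = 0.0356 and 0.00672). Of 10 listed interferon response genes, 7 were tested. In the same libraries 7 of 7 rose with LD-F1 (median 3.07) and 6 of 7 with LD-F1_b (median 1.27). The list was chosen with earlier results of these data known, so these counts are description and no test. Rsad2 stood at only 0.587 and 0.063 CPM in PBS, against 5.32 and 4.34 with LD-F1.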

How the data were processed

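Poly(A)-selected RNA of 6 libraries (3 groups of 2) was measured. The deposited table holds whole-number read counts per gene, made by the authors and left without normalisation. Per the submitters' processing notes, the tools were featureCounts 1.5.0-p3, StringTie 1.3.3b, HISAT2 2.0.5 and fastp, and the build GRCm39, with no role given for each. The identifiers are those of the C57BL/6NJ annotation for 41096 entries, all 47 helicases among them, and the last gene on chromosome 1 ends at 208807027, so GRCm39 sequence was not read by these positions. The strand setting and the handling of reads that fit several genes are not stated in these sources, so close paralogs and overlapping genes are uncertain.

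Counts were fitted in edgeR (4.0.16, R 4.3.3) and compared by its quasi-likelihood test, after filterByExpr (12740 genes kept) and TMM scaling (factors 0.965 to 1.04). All 6 libraries entered 1 fit with 3 residual degrees of freedom, and p-values were adjusted by Benjamini-Hochberg over all genes tested. A floor of 3 counts is 0.189 to 0.225 CPM per library and covers counting error only. Standard errors were computed back from the test. DESeq2 1.42.0 was an alternative. The steps were tested on simulated data.

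The members, roles and lists were chosen with earlier results of these data known. Genes with values per library are those called, those in close paralog pairs, the most abundant and those next to the count minimum. Ddx6 was added after its values were seen. Partner genes are named only where called. Of the per-sample columns, 0 were unmatched. Same-numbered deviations correlated between groups at 0.0837, -0.0234 and 0.00358. Each deviation also holds counting error, so these values do not settle whether replicate numbers pair libraries.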

Additional observations from a re-analysis of the deposited data

How the results depend on the processing

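Over the alternatives tried, no called helicase changed direction. Ddx6, which was not called, ran from -0.57 to 0.15 on the log2 scale with LD-F1. Of all genes called, the share that was higher went with library totals from 53.5% to 33.6% for LD-F1 and from 58.7% to 41.7% for LD-F1_b, and between the EV groups from 3.70% to 52.3% without LD-F1 replicate 1. The labels do not say that replicate numbers pair the libraries. With the replicate number as a block, 5 helicases were higher and 2 lower with LD-F1 and 2706 genes were called in all, and among the helicases the block changed the call of Ddx41 only. With LD-F1 against PBS (6 higher, 2 lower), scaling by library totals gave 1 higher and 5 lower, the DESeq2 test 3 higher, and a fit of only the groups compared 2 higher. With LD-F1_b against PBS (0 higher, 1398 genes in all), only the groups compared gave 4 helicases higher and 3098 genes in all, and the length trend removed gave 1 higher. Between the EV groups (54 genes in all), the counts were 185 with no filter on low counts, 96 with DESeq2, 33 with only the groups compared and 112 with the length trend removed.

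Leaving out each library in turn gave, with LD-F1, 0 (without PBS replicate 1) to 11 (without LD-F1 replicate 1) helicases higher, 1 to 9 lower and 1213 to 4497 genes in all. With LD-F1_b it gave 0 to 4 higher, 0 to 4 lower and 401 to 3142 genes in all. Between the EV groups it gave 0 to 1 helicases lower and 0 (without LD-F1_b replicate 2) to 1152 (without LD-F1 replicate 1) genes in all. Where a group was left with 1 library, that library was assumed to vary like the others. The cause of the changes under the other settings was not tested. With 2 libraries a group, small changes of low genes such as Ddx59 were beyond the precision (SE 0.22 on the log2 scale).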
